A study of Zea mays with 6 samples.

Results

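Among the small RNAs of the maize ovary, miR162 and miR168 stand apart because their classical targets belong to the miRNA machinery itself. Most plant miRNAs are cut from a folded precursor by DICER-LIKE1 (DCL1), and 1 strand, the guide, is then loaded into ARGONAUTE1 (AGO1), which slices messages that pair with it. In Arabidopsis, miR162 guides the slicing of the DCL1 message and miR168 that of the AGO1 message, so that both form negative feedback loops on miRNA production and action. The guide strand of miR162 lies on the 3p arm of its hairpin and that of miR168 on the 5p arm. The members were therefore taken by name, as entries of the miR162 family outside the 5p arm and of the miR168 family outside the 3p arm. This gave 2 guide strands, zma-miR162-3p_R+1 and zma-miR168a-5p, of 161 known miRNAs listed, and the opposite arms added 3 sequences of these families. In the degradome, which sequences the cut ends of messages, all rows of both families were taken. There was 1 such row of 471, and it paired miR162 with the gene GRMZM2G040762, annotated dicer-like 1.

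Small RNA was sequenced from ovaries of the maize inbred Yu-A474, grown under non-stress conditions and collected before pollination, at silking. Completely fused carpel (CFC) ovaries, labelled wild-type, were compared with incompletely fused carpel (IFC) ovaries, in which the carpel wall has a hole near the silk. Both kinds grow on the same ears of the same inbred, so that all groups share one genotype and one treatment, and whole ovaries were used, in which fewer cells with a miRNA and less miRNA per cell cannot be told apart. There were 2 biological replicates of each phenotype, taken from different ear rows, 4 small RNA libraries in all, and 1 degradome library of each phenotype mixed from both of its biological samples. The extraction labels name retinas, whereas the tissue labels and the methods name ovaries.

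Levels are given as NE, the normalized expression in RPM, for which the methods give a library's clean reads as the denominator. The commonest of the lowest NE values of a library, taken here as 1 read, lay between 0.717 and 1.15, which would make the denominators 873087 to 1394658 reads. These lie several times below the totals of valid reads that the study counts on average, so either the denominator was a smaller set of reads or that value is more than 1 read, and the read numbers and counting intervals of miRNAs below hold only on the first reading. The summed NE of the known miRNAs reached 28156 and 28278 in CFC ovaries but 19255 and 26590 in IFC ovaries. Known miRNAs listed at 0 numbered 42 in IFC replicate 1 and 24 to 26 in the other libraries. The triggers of anther phasiRNAs, miR2118 and miR2275, which were taken as markers of another floral tissue, had 7 listed members, of which 5 exceeded an NE of 1 in at least 1 library. Their summed NE was 43.4 and 19.3 in CFC and 33.2 and 49.4 in IFC ovaries, and its part in the results was not tested.

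The mature sequences are shown because the guide decides which message is paired, with bases 2 to 8, the seed, in capitals. They are written 5′ to 3′ as deposited, with T for U.
zma-miR162-3p_R+1 (guide): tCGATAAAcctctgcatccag
zma-miR162-5p (opposite arm): gGGCGCAGtggtttatcgatc
zma-miR168a-5p (guide): tCGCTTGGtgcagatcgggac
zma-miR168a-3p_R+1 (opposite arm): cCCGCCTTgcaccaagtgaat
zma-miR168b-3p_R+1 (opposite arm): cCCGCCTTgcatcaagtgaat
All 5 sequences had 21 nt, the usual length of a DCL1 product. Both guides began with T, that is uridine, the base favored by AGO1, whereas the opposite arms began with G or C. The suffix R+1 marks 1 base more at the 3′ end than the miRBase sequence, so that the miR162 guide of these ovaries was listed as a form 1 base longer than the annotated one. The seeds of the 2 guides were found in no other known miRNA of the table, and the guides matched each other at 5 of 21 positions. Both miR168 opposite arms shared their seed and differed by 1 substitution, C12T, with the base of miR168a-3p first and positions counted from the 5′ end.

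The precursors are shown because the arms of 1 hairpin come from 1 transcript, with both arms in capitals. Coordinates are those of the deposited table, whose genome build is not given in the sources used here, and all 3 precursors lie on the minus strand.
zma-MIR162, chr5:182091022-182091151: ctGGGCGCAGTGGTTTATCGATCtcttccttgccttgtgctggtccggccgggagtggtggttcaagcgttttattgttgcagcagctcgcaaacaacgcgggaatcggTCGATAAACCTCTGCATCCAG
zma-MIR168a, chr5:74370579-74370682: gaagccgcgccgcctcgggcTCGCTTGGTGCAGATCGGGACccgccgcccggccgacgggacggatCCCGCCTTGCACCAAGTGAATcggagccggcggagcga
zma-MIR168b, chr4:239639187-239639290: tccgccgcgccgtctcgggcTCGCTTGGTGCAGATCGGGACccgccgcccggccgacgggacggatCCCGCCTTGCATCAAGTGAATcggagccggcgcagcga
The miR162 hairpin had 130 bases with 86 bases between its arms, and the miR168 hairpins had 104 bases with 25 between theirs. In the deposited folds, 16 bases of the miR162 5p arm paired with the 3p arm, and 17 bases did so in each miR168 hairpin. The 2 miR168 precursors were identical at 98 of 104 positions. Their 5p arms and the stretch between the arms had no difference, so the guide sequence is the same in both and cannot be assigned to either, while C12T tells the 3p arms apart. The table lists the shared guide once, under precursor a, and how reads common to both precursors were divided is not given in the sources used here.

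The miR162 guide had an NE of 98.2 and 134 in CFC replicates 1 and 2 and of 134 and 177 in IFC replicates 1 and 2. Both IFC values lay above both CFC values, but the gap was an NE of 0.441, less than the NE taken as 1 read in any library. The CFC mean was 116 ± 25.0 (SD, n = 2) and the IFC mean 156 ± 30.7 (SD, n = 2), a ratio of 1.34. The log2 fold change was 0.43 (standard error 0.78, 95% interval -1.24 to 2.09), and limma gave an adjusted p = 0.999. The difference was thus smaller than the standard error of limma, which borrows its spread from all tested miRNAs. On that reading, these values stand for 117 to 212 reads, and their exact Poisson 95% intervals, which cover counting error only, ran from an NE of 113 to 157 in CFC replicate 2 and from 111 to 161 in IFC replicate 1.

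The miR168 guide was lower in both IFC libraries, and on the log2 scale the group means differed by more than replicates did but by less than the standard error of limma. zma-miR168a-5p had an NE of 302 and 417 in CFC replicates 1 and 2 and of 178 and 244 in IFC replicates 1 and 2, so that both IFC libraries lay below both CFC libraries, by at least 57.8. The means were 359 ± 80.8 (SD, n = 2) and 211 ± 46.9 (SD, n = 2), and the IFC mean was 0.588 of the CFC mean. The log2 fold change was -0.76 (standard error 0.78, 95% interval -2.43 to 0.90), with an adjusted p = 0.999 by limma. The study listed this miRNA as differential on these libraries, so its direction here is not independent evidence. A total of 21 tested miRNAs had a more negative log2 fold change than the miR168 guide, and 33 had a more positive one than the miR162 guide.

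As background, 0 of 145 tested miRNAs (0.0%) passed limma's adjusted threshold of 0.05, and 1 (0.69%), a miRNA of neither family, had an unadjusted p under 0.05. Both IFC libraries lay above both CFC libraries in 12 of the 145 (8.28%) and below them in 21 (14.5%), and each guide was 1 of these. The smallest two-sided p that exact permutation of 4 libraries allows is 0.333.

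**Figure D1:**
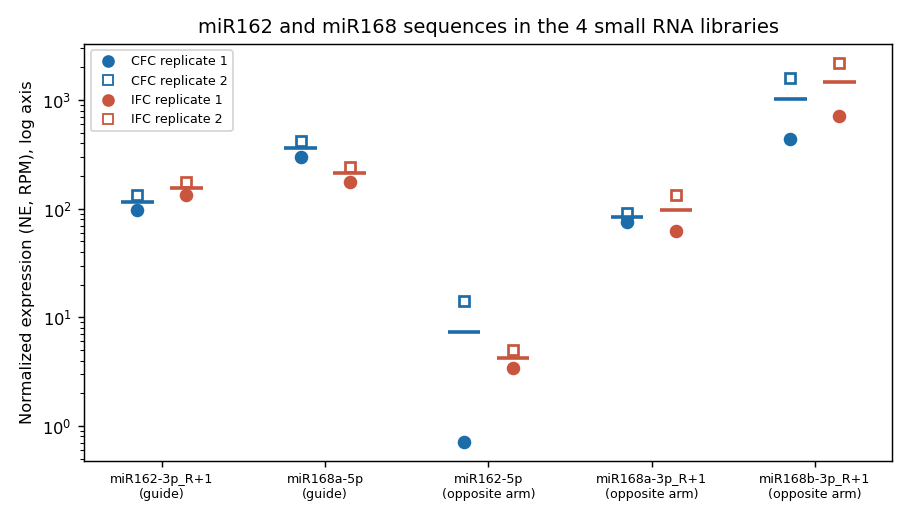
Normalized expression (NE, RPM, log axis) of the 5 miR162 and miR168 sequences in each small RNA library. Filled circles are replicate 1, open squares replicate 2, and bars are means of 2 libraries. The IFC values of the miR162 guide start at the upper CFC value of 134, those of the miR168 guide (178 and 244) lie below both CFC values, and the opposite arms overlap between the phenotypes.

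The opposite arms did not separate the phenotypes. zma-miR168b-3p_R+1, usually regarded as the passenger strand that is discarded, was the most abundant of the 5 sequences, with an NE of 443 and 1614 in CFC and of 720 and 2202 in IFC. The 2 CFC values differed 3.64-fold and the 2 IFC values 3.06-fold, and the groups overlapped. Its log2 fold change was 0.57 (standard error 0.89, adjusted p = 0.999 by limma), and it turned to -0.36 without CFC replicate 1 and to -0.23 without IFC replicate 2. zma-miR168a-3p_R+1 had an NE of 75.6 and 91.8 in CFC and of 61.8 and 133 in IFC, again overlapping (log2 fold change 0.12, standard error 0.80, adjusted p = 0.999 by limma). Its log2 fold change was -0.02 without CFC replicate 1 and -0.42 without IFC replicate 2.

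zma-miR162-5p was close to the limit of detection, with an NE of 0.717 and 14.1 in CFC and of 3.44 and 5.02 in IFC. On the same reading these values stand for 1, 16, 3 and 6 reads, and CFC replicate 2 set the CFC mean of 7.39 ± 9.43 (SD, n = 2) against an IFC mean of 4.23 ± 1.12 (SD, n = 2). The log2 fold change was 0.02 (standard error 0.96, adjusted p = 0.999 by limma). It was -1.54 without CFC replicate 1, 1.59 without CFC replicate 2 and -0.20 without IFC replicate 2, so that no direction can be given. Over the 5 sequences the median log2 fold change was 0.12, with 4 above 0, and over all 145 tested it was -0.02, with 71 above and 74 below 0.

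**Figure D2:**
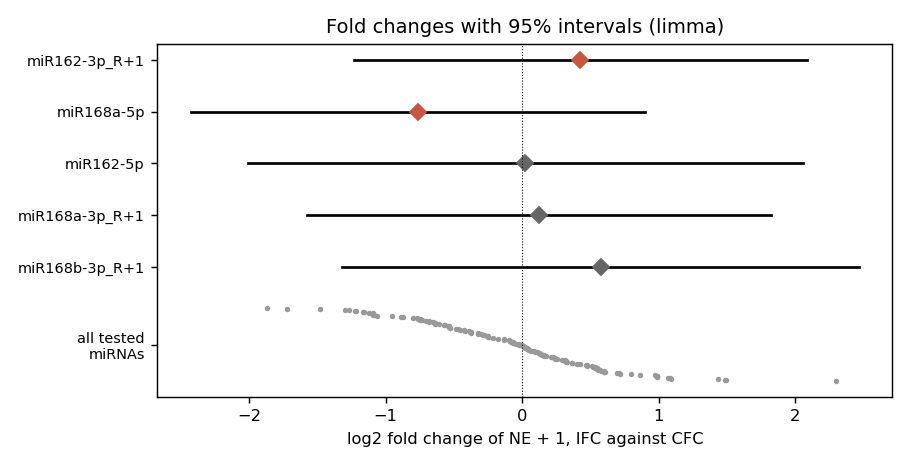
The log2 fold change of NE + 1, IFC against CFC, of the 5 sequences with 95% intervals from limma (red diamonds, guides; grey diamonds, opposite arms), above the fold changes of all 145 tested miRNAs as grey points in order of size. Every interval of the 5 crosses 0, and the guides lie on opposite sides of it, at 0.43 for miR162 and -0.76 for miR168.

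All 5 sequences kept one order in every library, namely miR168b-3p, the miR168 guide, the miR162 guide, miR168a-3p and miR162-5p. All are 21 nt long, so no length enters, but how well each sequence is ligated and amplified was not measured, and the order is one of NE rather than of molecules. Not every step of the order exceeded the spread between libraries. In IFC ovaries the highest value of the miR162 guide (177) came close to the lowest of the miR168 guide (178), and the values of the miR162 guide (98.2 to 177) overlapped those of miR168a-3p (61.8 to 133) over the 4 libraries. Among the 161 known miRNAs, miR168b-3p ranked 5th to 14th in a library, the miR168 guide 13th to 18th, the miR162 guide 21st to 25th and miR168a-3p 23rd to 31st, while miR162-5p ranked between 60th and 119th. The 3 miR168 sequences together held 2.91% and 7.50% of the known NE in CFC and 4.99% and 9.70% in IFC, and the 2 miR162 sequences held 0.351% and 0.522% in CFC and 0.714% and 0.686% in IFC.

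A ratio of 2 sequences within a library does not depend on how that library was scaled, and the guides were compared in this way after their values had been seen. The NE of the miR168 guide was 3.08 and 3.12 times that of the miR162 guide in CFC replicates 1 and 2 and 1.33 and 1.38 times in IFC replicates 1 and 2. The replicates of a phenotype nearly coincided and the phenotypes were apart. On the log2 scale of NE + 1 CFC ovaries had a ratio of 1.62 ± 0.016 (SD, n = 2) against 0.43 ± 0.037 (SD, n = 2) for IFC ovaries, a difference of -1.19, for which the exact two-sided permutation test gave p = 0.333, the smallest it can give. Among 4095 pairs of the 91 known miRNAs above an NE of 1 in every library, the ratio did not overlap between the phenotypes in 941 (23.0%), and the gap was at least as wide as that of the guides in 85 (2.08%). Such pairs share their libraries and miRNAs and are not independent of each other.

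Within the miR168 hairpins, the opposite arms stood higher relative to the guide in IFC ovaries. The NE of miR168b-3p was 1.47 and 3.87 times that of the guide in CFC replicates 1 and 2 and 4.05 and 9.01 times in IFC replicates 1 and 2, so that it exceeded the listed guide in all 4 libraries. In CFC replicate 1 and IFC replicate 1 the guide fell midway between whole multiples of the NE taken as 1 read. Both 3p arms did so too, in CFC replicates 1 and 2, so such values are not particular to the shared guide. The table may list a share of reads that both precursors hold, which these values do not settle. With the guide doubled, an alternative added after seeing the data, miR168b-3p had 0.733 and 1.94 times its NE in CFC and 2.02 and 4.51 times in IFC, so that in CFC replicate 1 the guide was then the higher one. miR168a-3p was below the guide in all 4, at 0.250 and 0.220 of its NE in CFC and 0.347 and 0.545 in IFC. In both cases the IFC values lay above the CFC values, although for miR168b-3p the step from 3.87 to 4.05 was small beside the distance between replicates. Between libraries of the same number, which the labels do not tie to one ear, the log2 ratio of miR168b-3p to the guide was higher in IFC by 1.46 for replicate 1 and by 1.21 for replicate 2. With both 3p arms summed, the log2 ratio to the guide averaged 1.40 ± 0.89 (SD, n = 2) for CFC ovaries against 2.69 ± 0.79 (SD, n = 2) for IFC ovaries, a difference of 1.29 (exact two-sided permutation p = 0.333, the smallest possible). The difference ranged from 0.66 to 1.91 when 1 library was left out. As the guide enters each of these ratios, they share its lower NE in IFC ovaries. The ratio of miR168b-3p to miR168a-3p, which leaves the guide out, was 5.85 and 17.6 in CFC and 11.6 and 16.5 in IFC and overlapped between the phenotypes.

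For miR162 the arms were unequal in the usual sense, with a 5p arm at 0.00730 and 0.105 of the guide in CFC and at 0.0256 and 0.0283 in IFC. The phenotypes overlapped (difference of the log2 ratio -0.40, exact two-sided permutation p = 1), and without CFC replicate 2 the difference was 0.94. For context, 29 hairpins of the table had sequences on both arms, with the 3p arm higher in 13. Of these 29, 3 had a larger ratio of 3p to 5p than miR162, and the ratio did not overlap between the phenotypes in 9 (31.0%), precursor a of miR168 among them.

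**Figure D3:**
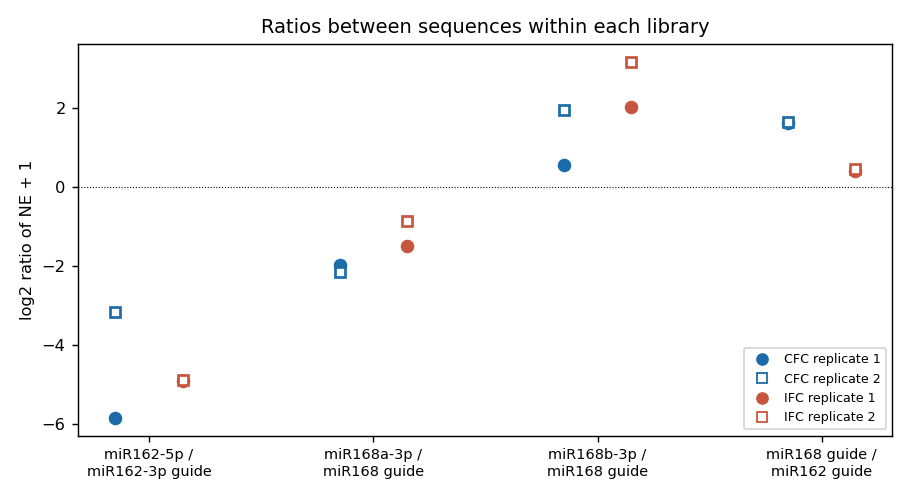
The log2 ratio of NE + 1 between 2 sequences of the same library, for the opposite arms against their guides and for the miR168 guide against the miR162 guide. Filled circles are replicate 1 and open squares replicate 2. The ratio of the guides, a mean of 1.62 in CFC and 0.43 in IFC, has the closest CFC replicates of the ratios shown, and the miR162 arms overlap between the phenotypes.

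For each guide, the 5 known miRNAs of other families with the nearest profile over the 4 libraries were taken by the Euclidean distance between log2(NE + 1) values centred on their mean. Nearest to the miR168 guide was zma-miR399a-3p, of the phosphate-starvation family, at a distance of 0.074, where the median over 140 miRNAs was 1.41. Its NE was 9.56 and 14.1 in CFC and 5.35 and 7.25 in IFC, also lower in both IFC libraries. It was followed by zma-miR164e-5p, of a family that targets NAC factors (0.29), zma-miR166a-3p, of a family that targets HD-ZIP III factors (0.40), zma-miR396a-5p, of a family that targets growth-regulating factors (0.46), and zma-miR827-5p_L+1, of a phosphate-related hairpin (0.51). Nearest to the miR162 guide were zma-miR166i-5p (0.39), zma-miR160a-3p (0.41), zma-miR171b-5p_L+1 (0.43), zma-miR171h-3p_L-1R+1 (0.43) and zma-miR166a-3p_R+3 (0.47), with a median distance of 1.29. Except for zma-miR171h-3p_L-1R+1 and zma-miR166a-3p_R+3, these are 5p or 3p sequences opposite the guide of their family. The guides lay 1.19 from each other, and 61 of the 140 miRNAs were nearer to the miR162 guide than the miR168 guide was. Among the named neighbours, zma-miR160a-3p had an NE of 0.717 and 1.76 in CFC and 2.29 and 3.35 in IFC. That of zma-miR164e-5p was 2.87 and 3.51 in CFC and 1.15 and 2.51 in IFC. Both neighbours were thus close to the limit of detection. With 4 libraries, distances between profiles are a description of these samples.

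A cut in the DCL1 message at a miR162 site was listed for both degradome libraries. The row of transcript GRMZM2G040762_T01 placed the miR162 guide at positions 1460 to 1481 of the transcript and the cut at position 1471. RefSeq (Zm-B73-REFERENCE-NAM-5.0) names the same gene model dcl1 (LOC100381417). The cut lay 10 positions before the end of the paired range, as in 56 of the 471 rows. It was thus off the commonest offset of 9, found in 392 rows, while 23 had 8. The paired range is longer than the 21-nt guide, and the base pairing was not examined here. Whether the cut lies opposite the usual guide bases can therefore not be told. The alignment score, a sum of penalties that is lower for better pairing, was 2.0, and 35 of 131 distinct sites (26.7%) had a score of 2.0 or less. Sites of 1 gene with the same signal in both libraries were counted as 1 distinct site.

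The signal at the DCL1 site, in TPB (a count of cut ends scaled to the reads of the library), was 779 in the CFC and 236 in the IFC degradome. With the largest signal of a site that rests on 1 read taken as the value of 1 tag, 59.9 in CFC and 59.1 in IFC, these are 13 and 4 tags. Exact Poisson 95% intervals ran from 415 to 1333 TPB in CFC and from 64.4 to 605 TPB in IFC and overlapped. The IFC signal was 0.303 of the CFC signal, with an exact conditional 95% interval of 0.0721 to 0.982 that covers counting error only. The interval holds for TPB as deposited, and its upper limit lies above the median ratio of all sites given below. There was 1 library of each phenotype, so the difference has no replicate check and no test was made. Among 81 sites with a signal in both libraries the median ratio of IFC to CFC was 0.877, and 58 of them were lower in IFC. The IFC signal was less than 1/2 of the CFC signal in 21 of the 81 (25.9%), the DCL1 site included, and 8 sites had a lower ratio than DCL1.

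The DCL1 site was a peak of category 2 in both libraries, above the median of its transcript but below its highest peak, whereas 37 sites in CFC and 29 in IFC were the single maximum of their transcript. By TPB it ranked 21st of 108 sites with a signal in CFC and 38th of 104 in IFC, where the median signals were 105 and 118. The p-value deposited from CleaveLand was 0.333 in CFC and 0.318 in IFC, above 0.05 in both. Within category 2 these were low values, as 0 of 30 such sites in CFC and 1 of 35 in IFC had a lower one.

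**Figure D4:**
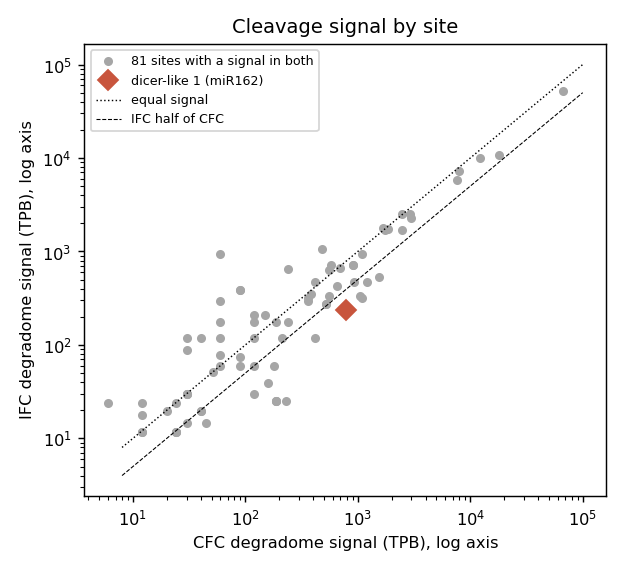
Degradome signal (TPB, log axes) in the IFC against the CFC library for the 81 distinct sites with a signal in both, 1 library each. The DCL1 site (red diamond, 779 in CFC and 236 in IFC) lies below the dashed line at which IFC has 1/2 of the CFC signal, as do 20 further sites.

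No degradome row named miR168, and no gene with a row was annotated as an argonaute. A total of 17 words for the miRNA and small RNA machinery were searched in the annotations, among them dicer, argonaute, serrate, hasty and HEN1. Only dicer matched, in 1 gene of 113, DCL1. The list does not cover every small RNA factor, so other such genes may be among the 113. The annotation nuclear RNA polymerase D2A (GRMZM2G054225), for example, matches none of its words. RefSeq names 5 maize loci as argonaute or dicer-like by symbol or synonym, 2 of them argonautes. Each has a gene model of the kind used in the table, and of these only dcl1 was listed. A RefSeq synonym was found for 81 of the 113 genes, and argonautes that RefSeq does not name were not covered. The locus that RefSeq names argonaute1 (GRMZM2G162525) was not listed, although the miR168 guide had an NE of at least 178 in every library. A site that is not listed may have had too few tags at this depth, where 1 tag is worth about 59 TPB, and absence of cleavage was not shown.

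Side by side, the guide of miR162 had 1.34 times the NE in IFC ovaries and its site in DCL1 0.303 times the signal, of which the first was smaller than its standard error on the log2 scale and the second has no replicate. The degradome counts cut messages, which vary with the amount of message as well as with slicing, and the DCL1 message itself was not analysed here.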

How the data were processed

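Small RNA libraries of CFC and IFC ovaries (2 each) and 1 pooled degradome library of each phenotype were grouped by the sample labels. The authors removed adapters, junk, structural RNA, repeat and exon reads, aligned the rest to miRBase precursors (ACGT101-miR) and deposited NE in RPM. Between 66.3% and 73.8% of low NE values (under 50) were whole multiples of 1 read (tolerance 0.02 reads), so no count test was run. Degradome sites were called with CleaveLand and Target Finder, and the authors deposited the signal (TPB, tags scaled to library reads), the peak category, a p-value and an alignment score. A table of targets of differential miRNAs, with no miR162 or miR168 entry, was not used here. Genome and transcript builds: not given in the sources used here.

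Known miRNAs were tested where any library exceeded an NE of 1, which left 145. Their log2(NE + 1) values entered limma 3.58.1 under R 4.3.3 (lmFit, eBayes, IFC against CFC, two-sided, Benjamini-Hochberg over all 145, threshold 0.05), with 2 residual and 13.7 prior degrees of freedom. The fit was run on 100 simulated sets as a check of the code. In these sets all miRNAs had the same spread, and the added shifts were larger than the fold changes of the guides. Whether changes as small as those of the guides can be detected was therefore not examined. Exact permutation tests, exact Poisson and conditional intervals and figures used Python 3.11.15, scipy 1.17.1 and matplotlib 3.10.9. Alternatives were other pseudocounts, filters, scalings and moderation, a replicate block and leaving out each library. Named miRNAs were all miR162 and miR168 sequences and the 5 nearest profiles of each guide. The members and lists were chosen with earlier results of these data known.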

Additional observations from a re-analysis of the deposited data

How the results depend on the processing

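Both guides kept their direction under all 12 alternatives, but most of these could not have reversed it. Filters, moderation and the replicate block leave a fold change as it is. Leaving out a library or changing the pseudocount cannot reverse groups that do not overlap. Only the other scalings could have turned the direction. For the miR162 guide the log2 fold change was 0.21 to 0.65 when 1 library was left out and 0.41 to 0.74 otherwise, and for the miR168 guide -0.99 to -0.53 and -0.76 to -0.45. When a library is left out, the lone library of its group is assumed to vary like the others. Scaling by the summed NE of known miRNAs moved the median of all miRNAs from -0.02 to 0.24, with 0.74 for the miR162 and -0.45 for the miR168 guide. No known miRNA was called by limma in any alternative, with 24 at an unadjusted p under 0.05 without CFC replicate 2 and 0 to 4 otherwise.

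The opposite arms changed sign. The log2 fold change of zma-miR162-5p was -0.18 with a pseudocount of 5 and -1.54 to 1.59 when 1 library was left out. That of zma-miR168a-3p_R+1 was -0.42 to 0.67 and that of zma-miR168b-3p_R+1 was -0.36 to 1.51 when 1 library was left out. The cause was not tested. With the guide doubled, also added after seeing the data, the difference of the miR168 arm ratio was 1.29. This value was fixed in advance apart from the pseudocount, because doubling shifts the log2 ratio of every library alike. When 1 library was left out, the difference of the miR168 arm ratio was 0.66 to 1.91 and that of the miR162 arm ratio -1.75 to 0.94. The ratio of the guides, added after seeing the data, differed by -1.21 to -1.16 over its alternatives. The DCL1 ratio was 0.346 to 0.385 under other scalings. With a pseudocount of 5, 2 of the 5 nearest miRNAs of the miR162 guide and 3 of the 5 of the miR168 guide remained.

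By the methods, IFC ovaries were picked near CFC ovaries, midway along one ear, so the phenotypes were not sampled independently. The labels share replicate numbers, but do not say that a number marks a shared ear. With only 2 pairs, the numbers were not taken to pair the samples in the main fit. The deviations of same-numbered libraries had a correlation of 0.254 across 145 miRNAs. With the replicate block the log2 fold changes were 0.43 and -0.76, unchanged, and 0 miRNAs were called (3 at an unadjusted p under 0.05). The degradome, with 4 and 13 tags at the DCL1 site, has no replicate.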
